A study of Mus musculus with 3 samples.

Results

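Gzma-expressing effector CD8 T cells made up 76 of the 26142 leukocytes from the islets of NOD mice that passed the limits on cells, out of 26947 cells in all. They were chosen cell by cell from their unique molecular identifiers (UMIs), each of which stands for 1 captured transcript. A cell was a member if it had at least 1 UMI of Cd3d, Cd3e and Cd3g together, at least 2 of Cd8a and Cd8b1 together, no Cd4, at most 1 Cd79a, at least 2 Gzma and at least 5 Ccl5, and neither Havcr2 nor Entpd1. These 11 genes set the membership, so their levels are described below and carry no test. The 3 libraries, replicates 1, 2 and 3, were droplet-based 3′ single-cell RNA libraries of live CD45+ cells sorted from dispersed islets of wild-type female NOD mice at 15 to 16 weeks of age, with the islets of 2 to 3 mice pooled in each. They came from 2 experiments, so that a pair of the libraries shares one, and which libraries these are is not known here. All cells therefore share 1 genotype, sex, age range and tissue, no mouse was treated, and every comparison below is between cells of the same pools. NOD mice develop autoimmune diabetes spontaneously, and the single animals cannot be told apart within a pool.

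CD8 T cells that recognise beta cell antigens enter the islets of NOD mice and kill insulin-producing cells. They carry granules with perforin, which opens a way into the target cell, and granzymes, serine proteases of which granzyme B cleaves caspase substrates and granzymes A and K have other targets. Effector cells make more of this machinery, stem-like memory cells keep the transcription factor TCF1 (Tcf7) and the IL-7 receptor (Il7r), and terminally differentiated cells carry TIM3 (Havcr2) and CD39 (Entpd1) beside PD1 (Pdcd1).

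Gzma (ENSMUSG00000023132) lies on the minus strand of chromosome 13 of mm10 at chr13:113093825-113100981. Gzmk (ENSMUSG00000042385) lies on the same strand at chr13:113171608-113225908, 70.6 kb away, with 0 protein-coding genes between them, whereas Gzmb (ENSMUSG00000015437) lies on chromosome 14 at chr14:56258838-56262260. Their promoters are shown because Gzma chose the members and Gzmk and Gzmb are the granzymes whose levels are followed through the comparisons below. Each line gives the 250 bases before the RefSeq start of the gene in GRCm38.p6, read 5′ to 3′ on the minus strand, from chr13:113100982-113101231 for Gzma, chr13:113180966-113181215 for Gzmk and chr14:56262335-56262584 for Gzmb. The positions of the genes are those of GENCODE, whose span of Gzmk reaches further upstream than RefSeq's, so that the Gzmk sequence lies within it, whereas the Gzmb sequence begins a little beyond the GENCODE end. Capitals mark matches to TGTGGT on either strand, the core letters bound by RUNX factors, to TGANTCA, bound by AP-1, and to CTTTGA on either strand, bound by TCF factors.
Gzma: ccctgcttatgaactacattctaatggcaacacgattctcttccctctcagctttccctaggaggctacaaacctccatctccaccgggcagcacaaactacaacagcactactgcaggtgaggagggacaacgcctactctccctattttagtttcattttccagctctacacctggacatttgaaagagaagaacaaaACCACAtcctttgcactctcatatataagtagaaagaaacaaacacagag
Gzmk: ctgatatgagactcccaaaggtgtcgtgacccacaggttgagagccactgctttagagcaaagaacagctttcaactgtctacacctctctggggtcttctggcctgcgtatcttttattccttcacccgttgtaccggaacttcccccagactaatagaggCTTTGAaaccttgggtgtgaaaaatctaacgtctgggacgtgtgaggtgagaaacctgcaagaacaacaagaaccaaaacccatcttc
Gzmb: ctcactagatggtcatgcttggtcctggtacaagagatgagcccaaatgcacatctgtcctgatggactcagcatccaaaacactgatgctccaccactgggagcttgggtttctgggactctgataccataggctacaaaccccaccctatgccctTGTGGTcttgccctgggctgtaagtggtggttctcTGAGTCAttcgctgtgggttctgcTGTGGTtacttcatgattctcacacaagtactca
The RUNX letters stood 50 bases before the start of Gzma, on the opposite strand, and 93 and 34 bases before that of Gzmb, which also held the AP-1 letters 58 bases before its start. The TCF letters stood 88 bases before the start of Gzmk. Of 32851 mouse promoters read over the same length, 14.0% hold the RUNX letters, 6.75% the AP-1 letters and 13.8% the TCF letters. These matches describe the sequence and no binding was measured.

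Replicates 1, 2 and 3 held 5844, 9537 and 11566 cells with 33851381, 74775394 and 80806452 UMIs. Of 640, 1312 and 1567 cells with at least 2 CD8 UMIs and no Cd4, 14, 22 and 40 were members. Their share of the CD8 cells was 2.19% in replicate 1 (exact 95% binomial interval 1.20 to 3.64), 1.68% in replicate 2 (1.05 to 2.53) and 2.55% in replicate 3 (1.83 to 3.46), or 2.14% ± 0.44 (SD, n = 3). The 3 intervals overlap. The members held 103869, 194655 and 301318 UMIs, so 3 UMIs of a gene equal 28.9, 15.4 and 9.96 CPM. CPM is the UMI count of a gene scaled to the summed UMIs of its cell group in a library, and a gene near these levels rests on a few molecules. Members had a median of 6992 UMIs per cell, close to the 6706 of the other CD8 cells, and median mitochondrial shares of 1.82%, 4.23% and 3.94% against 1.98%, 4.20% and 3.97%. Between libraries, 12, 18 and 29 cell barcodes were shared (replicates 1 and 2, 1 and 3, 2 and 3), 0 of them among the members. Intervals and floors cover counting error only.

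The Gzma threshold removed most CD8 cells. Of the 3519 CD8 cells, 3246 also met the Cd3 and Cd79a conditions, 160 of these had at least 2 Gzma UMIs, 132 also at least 5 Ccl5 UMIs, and 76 had no UMI of Havcr2 or Entpd1. Gzma per member ran from 2 to 133 UMIs with a median of 6, and 28 members had 10 or more. Just inside the threshold, 13 members had 2 Gzma UMIs (median Ccl5 47) and 10 had 3, and just outside it 45 cells had 1 (median Ccl5 71). Ccl5 per member ran from 8 to 600 UMIs with a median of 79.5, far from its threshold, which only 2 members met with 10 UMIs or fewer. A further 9 cells stayed out with 1 to 4 Ccl5 UMIs and 18 with none, and 56 stayed out for a Havcr2 or Entpd1 UMI although their Gzma, with a median of 12 and a highest count of 174 UMIs, was high.

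Gzma stood, by the choice made, at 3100, 1541 and 1600 CPM in the members of replicates 1, 2 and 3. In the other CD8 cells it stood at 65.3, 82.6 and 43.2 CPM, and in natural killer (NK) cells, the innate cells known for this protease, at 5548, 3368 and 5131 CPM. The high member value of replicate 1 comes mostly from few cells, since 1 cell held 41.3% of its Gzma UMIs, against 21% and 19.5% for the top cells of replicates 2 and 3. Ccl5, a chemokine of memory and effector T cells, stood at 10061, 15787 and 14062 CPM against 4466, 4614 and 5169. The plot of single members shows this spread of Gzma and Ccl5 in all 3 libraries.

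**Figure D1:**
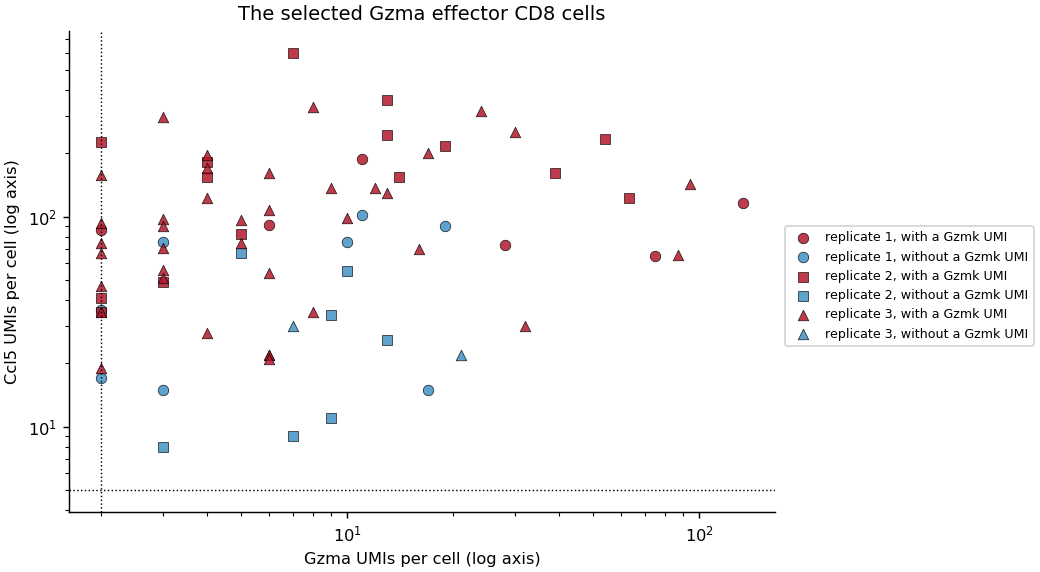
Raw UMIs of Gzma (x axis) and Ccl5 (y axis) in each of the 76 members, both axes logarithmic, with the library as the shape of a point, a Gzmk UMI as its colour, and the thresholds of the rule as dotted lines. Members run from 2 to 133 Gzma UMIs and from 8 to 600 Ccl5 UMIs. The cells without Gzmk lie mostly in the lower part of the Ccl5 range, with some of replicate 1 higher.

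Cd8b1, the CD8 beta chain, stood at 279, 272 and 368 CPM in the members and 291, 253 and 300.3 CPM in the other CD8 cells, as part of the rule, and 14 members had Cd8a only. The label of a CD8 T cell was checked against markers outside the rule. The alpha chain of the T-cell receptor was present in 70 of the 76 members (Trac, 481, 421 and 368 CPM, against 23.1, 17.6 and 9.24 CPM in NK cells), and Trbc2 in all 76. Of 11 macrophage and dendritic cell markers 3 had a UMI in the members, led by Cst3 with 79, and Lyz2, C1qa, C1qb, C1qc, Csf1r, Xcr1, Clec9a and Flt3 were at 0. Of 9 B cell markers 6 had a UMI, led by Cd74 with 63, and Ms4a1, Ighd and Ebf1 were at 0. Of 6 gamma-delta T cell markers 4 had a UMI, with Tcrg-C1 and Sox13 at 0, as had 4 of 5 markers of CD4 and regulatory T cells, with Cd40lg at 0, and all 7 NK markers. Their summed levels are given at the end. Of the effector genes, Nkg7 was found in 67 members, Fasl in 44, Prf1 in 34, Gzmb in 32 and Ifng in 6, and Mki67, a proliferation marker, in 6.

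The members were compared, over the sums of their UMIs in each library, with all other CD8 cells (3443 cells), which include naive, memory and terminally differentiated cells and have no condition on Cd3 or Cd79a. Of 9490 genes tested, edgeR's quasi-likelihood test with Benjamini-Hochberg adjustment called 85 higher in the members (0.896%) and 109 lower (1.15%), and 178 of the 194 had the same direction in all 3 libraries. This fit has 2 residual degrees of freedom, and edgeR put a value shared between genes of like abundance in place of each gene's own spread, on which the smallest p-values below rest. The higher genes held granzymes, granule protease inhibitors, Fas ligand, NK-type receptors and receptors for inflammatory chemokines. The lower ones held the lymph node homing receptor Ccr7, Lef1 and, among the largest changes, the opioid precursor Penk and B cell and plasma cell transcripts. The calls of the B cell and plasma cell transcripts are set against B cell RNA below. Over all genes tested the median log2 fold change was -0.09.

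Of 16 cytotoxic granule genes measured, 9 rose and 0 fell, with a median log2 fold change of 0.93. Serpinb9, an inhibitor of granzyme B that protects cytotoxic cells from their own granules, stood at 250.3, 247 and 342 CPM in the members and at 59.8, 62.7 and 55.8 CPM in the other CD8 cells. The groups did not overlap, and the log2 fold change was 2.18 ± 0.19 (SE, n = 3 libraries; edgeR adjusted p = 5e-27). Serpinb6b, an inhibitor of the same family, lies next to it on chromosome 13 (chr13:32965209-32979067, against chr13:33003250-33017957 for Serpinb9, 24.2 kb apart). It stood at 327, 195 and 385 CPM against 81.4, 53.0 and 52.6 CPM (log2 fold change 2.24 ± 0.19, edgeR adjusted p = 1.3e-29).

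Of the granzymes, Gzmk stood at 173, 478 and 518 CPM in the members and 83.3, 116 and 135 CPM in the others (1.72 ± 0.17, edgeR adjusted p = 4.2e-21). Replicate 1 was low for Gzmk in both groups, and its members were still above every library of the other CD8 cells. Gzmb, the caspase-cleaving granzyme, stood at 231, 252 and 212 CPM against 96.5, 77.9 and 57.7 CPM (1.56 ± 0.19, edgeR adjusted p = 5.1e-13). Fasl, the ligand of the death receptor Fas, stood at 86.7, 164 and 189 CPM against 41.6, 45.0 and 42.8 CPM (1.76 ± 0.23, edgeR adjusted p = 5e-12). None of these 3 genes overlapped between the groups. Nkg7 (0.86), Ctsw (1.01), Gzmm (2.44) and Gnptab also rose. Gzmm rested on 25 UMIs in 12 members and its adjusted p was 0.23 without replicate 3. Perforin was different: Prf1 stood at 28.9, 61.7 and 103 CPM against 30.3, 40.6 and 41.2 CPM, the groups overlapped, and the test did not pass (0.82 ± 0.29, edgeR adjusted p = 0.15, past the threshold in 0 of 17 alternatives). The plot of granule genes shows the 3 libraries of each cell group side by side.

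**Figure D2:**
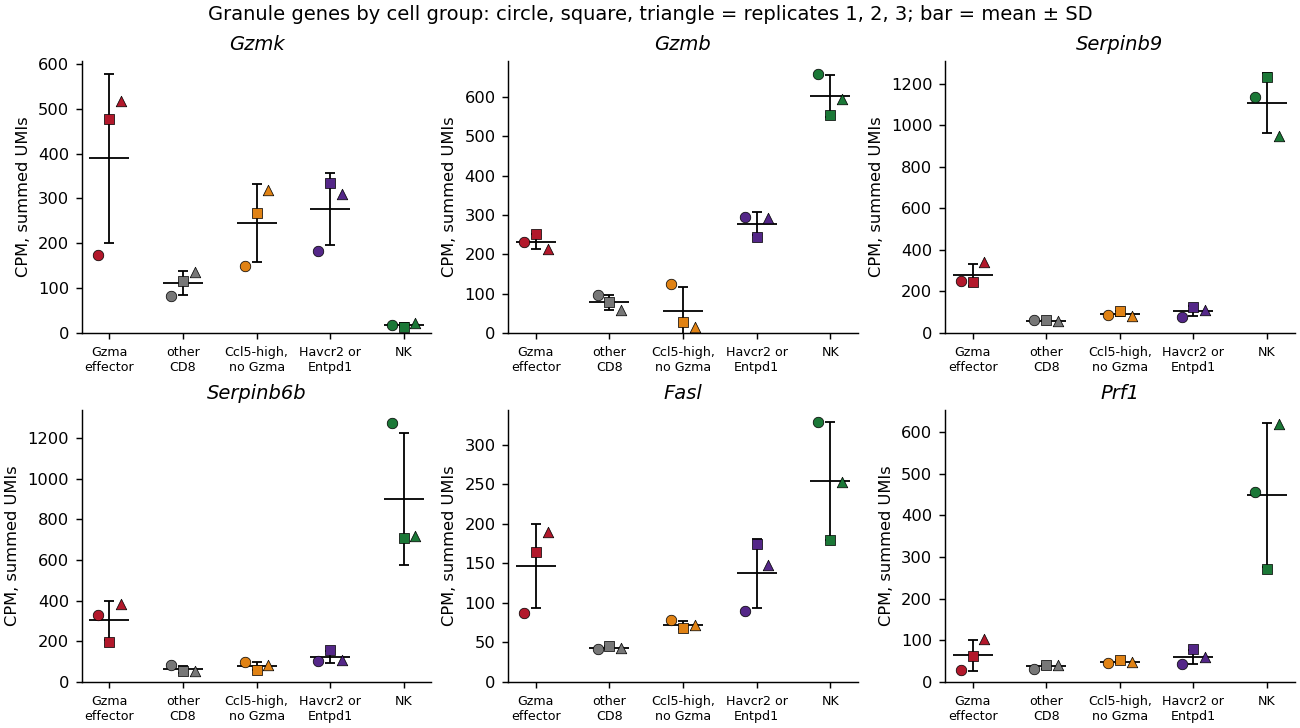
Levels in CPM of 6 granule genes (y axes, linear) in the 5 cell groups, with a point per library and bars for the mean ± SD of the 3. Serpinb9 and Serpinb6b of the members lie between the other CD8 groups and the NK cells, and Prf1 of the members overlaps the other CD8 cells.

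Killer lectin-like and other NK-type receptors rose in 6 of 11 measured genes and fell in 0 (median log2 fold change 0.94). Klra1, an inhibitory Ly49 receptor for MHC class I, stood at 57.8, 51.4 and 49.8 CPM against 8.97, 8.23 and 9.08 CPM (2.48 ± 0.43, edgeR adjusted p = 1.8e-06), in 16 members. Ly49 genes are close copies of each other, so reads may have been split between them and this level is uncertain. Il18rap, a chain of the IL-18 receptor, stood at 67.4, 123 and 106 CPM against 14.5, 20.5 and 21.6 CPM (2.30 ± 0.31, edgeR adjusted p = 5e-11). Klrc1 (1.03), Klrc2, Klrk1 (0.94) and Klrg1 (2.80) were the others. Klrk1, the activating receptor NKG2D, did not pass without replicate 1 (edgeR adjusted p = 0.1), nor did Klrg1, found in 9 members, without replicate 2 (edgeR adjusted p = 0.15). NK cell markers went the same way only in part. Of 3 tested, only Fcer1g was also called higher (median 0.72). The 7 markers summed to 703, 272 and 146 CPM in the members against 241, 157 and 165 CPM, so that replicate 1 stood apart and replicate 3 was lower in the members. Without the CD8 cells that had Fcer1g or Tyrobp, Klra1 (2.48), Il18rap (2.29), Klrc1 (0.99) and Klrg1 (2.92) still passed, and Klrk1 (0.52) did not.

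Of 24 genes for chemokine receptors, egress and adhesion, 9 were higher and 1 lower, with a median of 0.59. Ccr2, a receptor for inflammatory chemokines, stood at 125, 195 and 133 CPM against 39.7, 43.7 and 48.9 CPM (1.67 ± 0.23, edgeR adjusted p = 1.6e-10). Rgs1, which dampens chemokine receptor signals and is known from tissue-resident cells, stood at 1040, 560.0 and 528 CPM against 261, 208 and 213 CPM (1.47 ± 0.15, edgeR adjusted p = 1.1e-20). In both genes all 3 libraries of the members were above all 3 of the others. Cxcr3, Cxcr6, Cx3cr1, Itgb1 (0.99), Selplg and Gpr183 (1.41) were also among the higher. Itgb1 did not pass without replicate 2 (edgeR adjusted p = 0.15). Ccr7, which guides T cells into lymph nodes, stood at 221, 226 and 202 CPM against 413, 543 and 573 CPM (-1.37 ± 0.17, edgeR adjusted p = 6.2e-13).

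Among 15 naive and stem-like memory genes, 3 fell and 0 rose (median -0.38). Lef1, a transcription factor of naive T cells, stood at 86.7, 97.6 and 153 CPM against 127, 300.2 and 308 CPM (-1.23 ± 0.21, edgeR adjusted p = 6e-07), with replicate 3 of the members above replicate 1 of the others. The other 2 that fell were Dapl1 and Igfbp4, the latter without a UMI in the members. Low Lef1 holds against this pool, which includes naive cells, and not against the CD8 groups compared below, where Lef1 was not called. With each cell thinned to 1000 UMIs, Lef1 was found in 13.6% of the members and 20.7% of the other CD8 cells. It was then found in 7.13% of the Ccl5-high cells without Gzma and 4.63% of those with Havcr2 or Entpd1, below the members in all 3 libraries. Tcf7, at 106, 211 and 126 CPM against 144, 131 and 124 CPM, did not pass (0.10 ± 0.20, edgeR adjusted p = 0.95), and neither did Il7r, at 144, 252 and 309 CPM against 229, 221 and 262 CPM (-0.05 ± 0.17, edgeR adjusted p = 0.98). Both overlapped between the groups, and both changed sign under some alternatives.

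Of 16 checkpoint genes, 2 fell and 0 rose (median -0.36). Lag3, an inhibitory receptor for MHC class II, stood at 19.3, 36.0 and 13.3 CPM against 73.0, 67.3 and 64.3 CPM (-1.70 ± 0.37, edgeR adjusted p = 0.00047), on 13 UMIs in 9 members, and its adjusted p was 0.23 without replicate 3. Cd200 was the other that fell (-2.27). The rule keeps cells with Havcr2 or Entpd1 out of the members but not out of the other CD8 cells, so these calls lean in part on the rule. With each cell thinned to 2000 UMIs, Lag3 was found in 30.4% of the cells with Havcr2 or Entpd1. Against the Ccl5-high cells without Gzma, which also lack these 2 genes, Lag3 was not called. Its shares there were 5.41% of the members and 13.9%, lower in the members in all 3 libraries. Pdcd1, the gene of PD1, stood at 202, 267 and 216 CPM against 205, 145 and 183 CPM, with the groups overlapping (0.31 ± 0.18, edgeR adjusted p = 0.57). Tigit, the checkpoint receptor that competes with CD226, was found in 5 members only, at 19.3, 10.3 and 6.64 CPM against 18.4, 13.6 and 12.6 CPM (-0.55 ± 0.66, edgeR adjusted p = 0.88). At this depth no difference in Tigit was detectable.

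Other lists gave fewer calls. Of 16 calcium-binding and cytoskeletal genes 4 rose, S100a6, S100a10, Lgals3 and Vim, and 0 fell. Of 15 cytokine receptors Il2rb, Il18r1 and Ifngr1 rose and Il21r fell. Hopx and Irf8 rose among 15 transcription factors, Lck and Ptprc among 15 genes of T-cell receptor signalling, and Dusp5 among 14 genes of the response to the receptor, where Cd83 fell. Tnfrsf4, the gene of OX40, fell among 10 co-stimulatory receptors, and Bcl2a1b rose among 13 survival genes. The interferon-induced GTPases Gbp2, Iigp1 and Igtp fell among 18 interferon response genes. Of 16 cell cycle genes and 10 chemokines and cytokines, 0 passed in either direction. Xcl1, the chemokine that attracts cross-presenting dendritic cells, stood at 607, 56.5 and 23.2 CPM in the members, so that replicate 1 was high, as it was in the other CD8 cells (514, 69.1 and 85.04 CPM).

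Over all genes tested, the rule on size named 10 genes in each direction, some of them members of the lists. The higher ones were Klra1, Car2 (2.43), Il18rap, Serpinb6b, Serpinb9, Rhoq (1.98), Mirt1 (1.95), Epsti1 (1.85), Fasl and Gzmk. Car2, a carbonic anhydrase, stood at 144, 113 and 76.3 CPM against 19.0, 12.9 and 23.1 CPM, but its 60 UMIs came from 13 members. Its direction turned under the study's cell limits (-1.92) and in cells of 2000 to 6000 UMIs (-1.93). Rhoq did not pass without replicate 2 (edgeR adjusted p = 0.39). The lower ones were Penk, Ebf1, Ighg1, Jchain, Igkc, Mzb1, Ighg2b, Cd74, H2-Eb1 and H2-Ab1. All but Penk are genes of B cells, plasma cells or MHC class II. The other CD8 cells had no upper limit on Cd79a, and the summed level of 9 B cell markers was 982, 211 and 146 CPM in the members and 7016, 3980 and 3046 CPM in the other CD8 cells. With the Cd3 and Cd79a limits on the other CD8 cells too, Igkc still differed by -2.24 and Cd74 by -1.50 on the log2 scale. With at most 1 Cd74 UMI in every CD8 cell, which also limits Cd74 itself, Igkc (-0.20), Jchain (-0.16), Cd74 (-0.38), H2-Eb1 (-0.094), H2-Ab1 (0.081) and Ighg2b (0.49) did not pass, the last 2 with the sign turned, and Ebf1, Ighg1 and Mzb1 had no value. Ighg2b did not pass without replicate 3 (edgeR adjusted p = 0.85), and immunoglobulin genes have close copies, so their counts are uncertain.

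Penk had 0 UMIs in the 76 members. In the other CD8 cells it stood at 98.2, 132 and 89.7 CPM, in the Ccl5-high cells without Gzma at 148, 137 and 159 CPM, and in the cells with Havcr2 or Entpd1 at 182, 403 and 167 CPM. Set against a floor of 3 UMIs over all members, it was at least 21.7-fold lower in the members than in the other CD8 cells, 29.8-fold lower than in the cells without Gzma and 53.1-fold lower than in those with Havcr2 or Entpd1. These bounds take UMIs as independent, whereas few cells carry Penk. In cells thinned to 2000 UMIs it was found in 6.21% of the other CD8 cells, 9.70% of those without Gzma and 15.9% of those with Havcr2 or Entpd1, against 0 of 76 members (exact 95% upper limit 4.74%), so by cells the difference is bounded much less tightly. The edgeR adjusted p was 6.9e-22 against the other CD8 cells, and it was past the threshold in 17 of 17 alternatives.

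The call count against the other CD8 cells depends on how the libraries enter and on the cells kept. Without the library as a block it was 14 (10 higher, 4 lower), and with DESeq2 it was 85, of which 62 were higher. In the main fit 85 of 194 were higher. This share was lower still under the study's cell limits (13 of 68) and in cells thinned to 2000 UMIs (17 of 76). In cells of 2000 to 6000 UMIs, 15 of 62 were higher. The call count was 108 without replicate 2 and 99 without replicate 3. Serpinb9, Serpinb6b, Il18rap, Gzmb and Penk passed in 17 of 17 alternatives, Gzmk, Ccr2, Rgs1 and Ccr7 in 16, and Irf8 in 7, with a change of sign in 3. Irf8 did not pass without replicate 1 (edgeR adjusted p = 0.82) or replicate 2 (0.12).

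The closest cells on the other genes of the rule were the 884 Ccl5-high CD8 cells with no Gzma UMI (181, 293 and 410 per library). This comparison asks what came with Gzma among cells that met the same thresholds of Ccl5, CD3 and CD8 and had no Havcr2 or Entpd1. They were not alike in the level of Ccl5, which stood at 10879, 9103 and 10384 CPM in these cells, below the members in replicates 2 and 3 and above them in replicate 1. Of 7367 genes, 25 were higher in the members (0.339%) and 16 lower (0.217%) by the same edgeR test, and 40 of the 41 had 1 direction in all libraries. The median over all genes was -0.03.

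Granule genes rose in 3 of 16 measured and fell in 0 (median 0.49). Serpinb9 stood at 87.3, 106 and 83.6 CPM in the cells without Gzma, below all 3 libraries of the members (1.61 ± 0.20, edgeR adjusted p = 0.00017), and Serpinb6b at 96.9, 58.3 and 81.9 CPM (1.96 ± 0.26, edgeR adjusted p = 0.00023). Both missed the threshold narrowly without replicate 3 (edgeR adjusted p = 0.051 for each) and passed in 14 of 15 alternatives. Gzmb stood at 125, 26.8 and 16 CPM in the cells without Gzma (2.47 ± 0.40, edgeR adjusted p = 0.0029), with replicate 1 high among them. It did not pass without replicate 2 (edgeR adjusted p = 0.094) or replicate 3 (edgeR adjusted p = 0.1). Gzmk, at 150.2, 267 and 320 CPM in the cells without Gzma, overlapped the members and did not pass (0.64 ± 0.17, edgeR adjusted p = 0.14), and Fasl did not either (1.09 ± 0.28, edgeR adjusted p = 0.098). Both passed without replicate 1 (edgeR adjusted p = 0.02 and 0.0041) but not without replicate 2 or replicate 3. Of 18 killer lectin-like and other NK-type receptors measured, 0 were called in either direction here (median 0.58). The 7 NK cell markers stood at a median log2 fold change of 2.67 in this comparison, with Fcer1g called. Without the CD8 cells that had Fcer1g or Tyrobp, Serpinb9 (1.43), Serpinb6b (1.90) and Gzmb (2.67) still passed. Gzmk (0.87) and Fasl (1.26) passed there too, and also with at most 1 Cd74 UMI per CD8 cell (0.71 and 1.11).

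Of 15 effector transcription factors, Eomes and Zeb2 fell and Irf8 rose (median 0.21). Eomes stood at 106, 113 and 123 CPM in the members against 239, 209 and 240.3 CPM (-1.03 ± 0.20, edgeR adjusted p = 0.013). Zeb2 stood at 77.0, 71.9 and 46.5 CPM against 144, 131 and 155 CPM (-1.30 ± 0.27, edgeR adjusted p = 0.025). Tox, a factor of exhausted and stem-like cells, stood at 106, 30.8 and 36.5 CPM against 261, 90.5 and 85.5 CPM (-1.39 ± 0.30, edgeR adjusted p = 0.037), high in replicate 1 in both groups, so that they overlapped. Cd27, a co-stimulatory receptor of memory cells, stood at 308, 390.4 and 435 CPM against 688, 560 and 692 CPM (-0.79 ± 0.16, edgeR adjusted p = 0.02). Eomes, Zeb2 and Cd27 did not overlap between the groups. These 4 calls did not hold with each library left out. Without replicate 3 the edgeR adjusted p was 0.33 for Eomes, 0.68 for Zeb2, 0.21 for Tox and 0.33 for Cd27, and without replicate 2 it was 0.14, 0.11, 0.29 and 0.12. Without replicate 1, Tox (0.11) and Cd27 (0.066) did not pass. Cd27 was the only call among 14 naive and stem-like memory genes (median -0.05), Tox the only one among 16 checkpoint genes (median -0.75).

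The 6 highest genes by the rule were Fcer1g (3.44), Car2 (2.50), Gzmb, Plac8 (2.21), Serpinb6b and Epsti1 (1.92). Epsti1 stood at 385, 128 and 163 CPM against 79.9, 46.1 and 39.5 CPM. Car2 was at -1.11 under the study's cell limits and -0.96 in cells of 2000 to 6000 UMIs, but both settings leave the same 18 members of replicate 3 as the only member sum. The lowest were Penk, Nrn1 (-3.49), Tnfsf4 (-3.39), Ptch1 (-2.42), Ppp2r3a (-2.01) and E130308A19Rik (-1.89). Nrn1, which encodes neuritin, stood at 0, 10.3 and 16.6 CPM in the members against 89.5, 135 and 145 CPM in the cells without Gzma, and passed in 13 of 15 alternatives. Tnfsf4, the gene of the OX40 ligand, stood at 0, 10.3 and 6.64 CPM against 82.0, 62.2 and 61.1 CPM. Without replicate 3, Plac8, Tnfsf4, Ptch1, Ppp2r3a and E130308A19Rik did not pass (edgeR adjusted p = 0.18, 0.27, 0.57, 0.32 and 0.38), and Tnfsf4 and E130308A19Rik did not without replicate 2 (0.07 and 0.29). E130308A19Rik also failed without replicate 1 (0.073). Ccr2 (1.40) and Itgae (2.65), the alpha E integrin of epithelial residence, were the 2 calls among 23 chemokine receptor, egress and adhesion genes. Itgae, from 5 members, did not pass with replicate 1, 2 or 3 left out (edgeR adjusted p = 0.15, 0.46 and 0.066), and Ccr2 did not without replicate 2 (0.46) or replicate 3 (0.37).

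Some of these higher genes came from few cells. A UMI of Fcer1g or Tyrobp, adaptors of NK and myeloid cells, was found in 6 members (2, 3 and 1 per library). These 6 held 29 of the 29 Fcer1g UMIs, 13 of the 13 Klrb1b UMIs, 103 of the 109 Irf8 UMIs and 47 of the 63 Cd74 UMIs of all members. Of the 6, 3 had a UMI of Ncr1, 3 of Trdc, 5 of Il7r and 2 of Gzmk. Irf8, called higher (2.91 ± 0.49, edgeR adjusted p = 0.004), stood at 530, 257 and 13.3 CPM in the members and overlapped the cells without Gzma (23.4, 39.4 and 14.0 CPM). Without cells that had Fcer1g or Tyrobp it reversed to -0.50, and Fcer1g to -0.028, Car2 stood at 1.61 and did not pass, and 52 genes were called. Irf8 did not pass without replicate 1 (edgeR adjusted p = 0.13). The call count was 8 without the library block, 23 without replicate 2 and 12 without replicate 3.

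**Figure D3:**
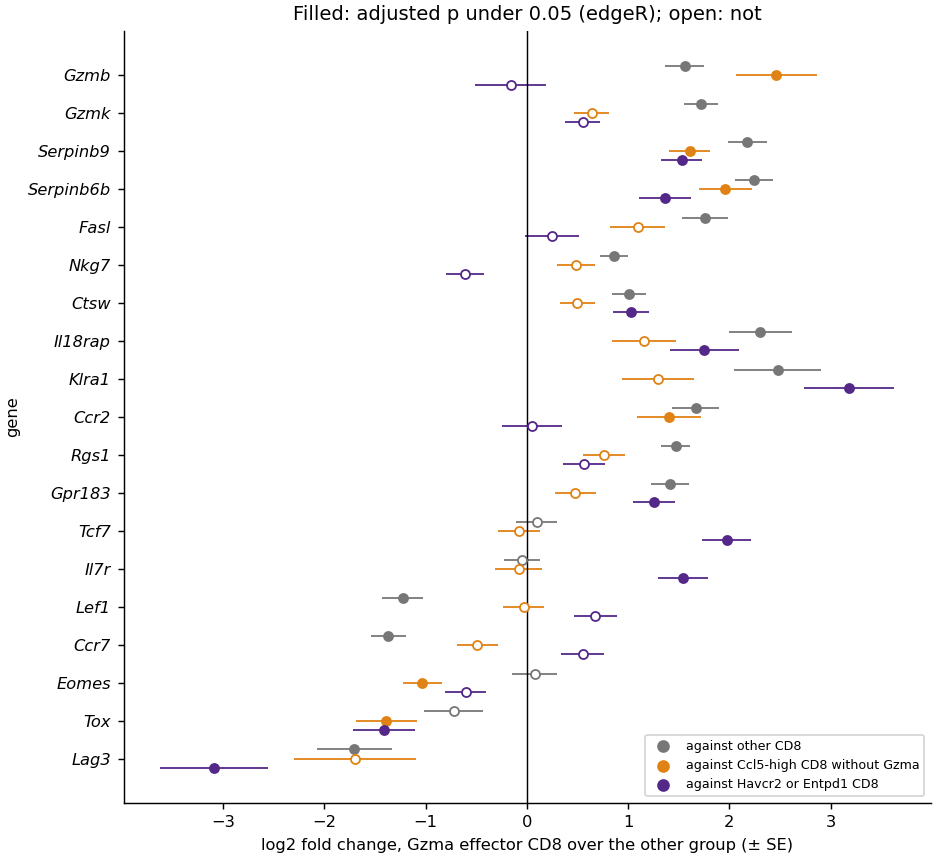
Log2 fold change (x axis) of the members over the 3 other groups of CD8 cells for genes named in the text (y axis), with bars of 1 SE and filled points where the edgeR adjusted p was under 0.05. Serpinb9 and Serpinb6b are filled and above 0 against all 3 groups, and Tcf7 and Il7r are filled only against the cells with Havcr2 or Entpd1.

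A UMI of Havcr2 or Entpd1, the mark of terminally differentiated cells, was found in 401 CD8 T cells (99, 160 and 142), with any Gzma or Ccl5. Of 7367 genes, 104 were higher in the members (1.41%) and 90 lower (1.22%), and 190 of the 194 had 1 direction in all libraries (median over all genes -0.03). Gzma stood at 288, 475 and 203 CPM in these cells and Ccl5 at 8554, 16100 and 17627 CPM.

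Of 14 naive and stem-like memory genes, Tcf7, Il7r and Rflnb rose and 0 fell (median 0.78). Tcf7 stood at 52.1, 42.6 and 29.96 CPM in the cells with Havcr2 or Entpd1, below all 3 libraries of the members (1.97 ± 0.24, edgeR adjusted p = 8.9e-05, past the threshold in 13 of 15 alternatives). Il7r stood at 57.2, 125 and 86.3 CPM, also without overlap (1.54 ± 0.25, edgeR adjusted p = 0.0015). Of 23 receptors for chemokines, egress and adhesion, 6 rose, among them Cxcr3, S1pr1, Klf2, Itgb1 and Gpr183, and Cxcr6 fell. S1pr1, the receptor by which T cells leave tissue, stood at 183, 175 and 159 CPM against 40.1, 101 and 84.2 CPM (1.22 ± 0.24, edgeR adjusted p = 0.0054). Thinned to 2000 UMIs, S1pr1 was found in 19.2% of the members and 11.1% of these cells, with replicate 2 the other way (13.6% against 15.0%). Thinned to 1000 UMIs, it was higher in the members in all 3 libraries. At 2000 UMIs it was found in 33.4% of the other CD8 cells, above the members in all 3 libraries, and 22.2% of the cells without Gzma. Cxcr6, known from cells that stay in tissue, stood at 259.9, 283 and 196 CPM against 325, 671 and 688 CPM (-1.16 ± 0.29, edgeR adjusted p = 0.033). In CPM, none of these 4 genes overlapped between the members and the cells with Havcr2 or Entpd1.

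Checkpoint genes fell in 3 of 16 (median -0.82) and rose in 0. The rule divided these groups by Havcr2 and Entpd1, so a difference in genes found with them is no independent result. Lag3 was at 92.2, 241 and 245 CPM in the cells with Havcr2 or Entpd1 and lower in the members (-3.09 ± 0.53, edgeR adjusted p = 0.0023), Tox and Cd200 were the others (-1.41 and -2.74). Pdcd1 stood at 254, 357 and 334 CPM in these cells and had no call. Cell cycle genes fell in 4 of 16, Top2a, Mcm3, Mcm6 and Tubb5 (median -1.37), and 5 of 16 calcium-binding and cytoskeletal genes fell, S100a4, Lgals1, Vim, Crip1 and Capg (median -0.70). Top2a, which unwinds DNA in dividing cells, stood at 106, 20.6 and 13.3 CPM in the members against 329, 62.3 and 74.2 CPM, and was high in replicate 1 in both groups.

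Granzymes split. Gzmb stood at 296, 245 and 293 CPM in the cells with Havcr2 or Entpd1, overlapped the members and did not pass (-0.16 ± 0.35, edgeR adjusted p = 0.9), whereas Gzmm (2.98), Ctsw (1.03), Serpinb9 (1.53) and Serpinb6b (1.36) rose among 16 granule genes and Rab27a fell. Serpinb9, at 77.2, 124 and 110 CPM in these cells, passed in 15 of 15 alternatives. By the rule on size the higher genes included Klra1 (3.18), Car2 (2.59), Plac8 (2.02), Tcf7 and Zhx2 (1.90). Under the study's cell limits and in cells of 2000 to 6000 UMIs, where that 1 member sum of replicate 3 remains, Car2 was at -0.032 and -0.22, and Zhx2 at -0.062 and -0.067. The lower were Penk, Hist1h2ad (-4.56), Ifitm3 (-3.91), Hist1h1b (-3.81), Ccl3 (-3.68), a chemokine of activated T cells, and Ifitm2 (-3.52).

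The cells with Havcr2 or Entpd1 carried more RNA of other cells. Their 11 macrophage and dendritic cell markers summed to 1360, 392 and 839 CPM against 260, 139 and 153 CPM in the members, with Cst3 the most abundant in both. Their 9 B cell markers summed to 4782, 1392 and 1987 CPM. With CD8 cells limited to at most 1 Cd74 UMI, 216 genes were called, 122 of them higher, and Tcf7 (2.28), Il7r (1.75), S1pr1 (1.22), Serpinb9 (1.75), Cxcr6 (-1.30) and Lag3 (-3.34) still passed. Ccl3 had no value there, and without the CD8 cells that had Fcer1g or Tyrobp it stood at -2.67 and did not pass. Ifitm2 and Ifitm3 had no value under either limit. This comparison leaned on replicate 3, which held 40 of the 76 members. Without it 15 genes were called and without replicate 2 75, and without the library block 36. Of the genes given values here, Tcf7, Klra1, Car2, Penk and Serpinb9 passed without each library in turn, while Il7r (edgeR adjusted p = 0.16), S1pr1 (0.14), Cxcr6 (0.44), Lag3 (0.14), Gzmm (0.16), Ctsw (0.14), Serpinb6b (0.33), Tox (0.24), Plac8 (0.14), Cxcr3 (0.4), Cd200 (0.21), Zhx2 (0.084), Ccl3 (0.087), Hist1h2ad (0.16), Hist1h1b (0.062), Ifitm3 (0.14) and Ifitm2 (0.2) did not pass without replicate 3. Without replicate 2, the edgeR adjusted p was 0.21 for Cxcr6, 0.1 for Tox, 0.098 for Cxcr3, 0.078 for Zhx2, 0.26 for Ccl3 and 0.1 for Hist1h2ad.

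NK cells share the granule program but not the T-cell receptor. The 151 NK cells (50, 44 and 57) had no Cd3 UMI and at least 1 of Ncr1 or Klrb1c. Of 7365 genes, 273 were higher in the members (3.71%) and 251 lower (3.41%), and 504 of the 524 had 1 direction in all libraries (median over all genes -0.02). Among 16 granule genes, 2 rose and 3 fell. Gzmk stood at 17.3, 14.1 and 21.6 CPM in the NK cells, below all 3 libraries of the members (4.71 ± 0.29, edgeR adjusted p = 6e-10), and Gzmm was the other that rose (3.56). Prf1 stood at 456, 271 and 619 CPM in the NK cells (-2.45 ± 0.32, edgeR adjusted p = 2.5e-05), and Serpinb9 at 1137, 1233 and 951 CPM (-1.78 ± 0.19, edgeR adjusted p = 1.9e-06). In both genes all NK libraries were above all member libraries. Gzmb, at 658, 553 and 594 CPM in the NK cells, narrowly missed the threshold (-1.17 ± 0.36, edgeR adjusted p = 0.054).

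Of 16 NK-type receptors 11 were lower in the members and 0 higher (median -2.38). Klrk1 differed by -1.82 ± 0.30 (edgeR adjusted p = 0.00031). Of 15 transcription factors 7 were lower, among them Eomes (-1.34), Tbx21 (-1.73) and Irf8 (-2.94), and 0 higher. Of 16 checkpoint genes 2 were higher and 1 lower. The higher ones were Pdcd1, at 116, 31.7 and 33.9 CPM in NK cells (2.31 ± 0.35, edgeR adjusted p = 0.00013), and Ctla4 (2.48). Of 10 co-stimulatory receptors 5 were higher, Cd28 (0.70), Icos, Tnfrsf4, Cd5 and Cd6 (7.32), and 2 lower. Of 14 naive and stem-like genes 5 were higher, including Tcf7 (1.25) and Lef1 (1.05), and 1 lower, and of 18 interferon response genes 5 were higher and 0 lower (median 0.82). Themis, needed for T-cell receptor signals, was at 67.4, 97.6 and 103 CPM in the members and at 0 in the NK cells, at least 24.8-fold higher against a floor of 3 UMIs over the NK cells. Serpinb9b was at 0 in the members and at least 41.4-fold higher in the NK cells. Tbx21, Lef1, Cd28 and Tcf7 did not pass without replicate 3 (edgeR adjusted p = 0.33, 0.35, 0.22 and 0.095) or without replicate 2 (0.091, 0.065, 0.28 and 0.12), and Gzmm did not without replicate 3 (0.07), without which 195 genes were called, against 313 without replicate 2.

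Since the 4 comparisons share the sums of the members, the members' values recur in each. Side by side, Serpinb9 differed by 2.18, 1.61 and 1.53 on the log2 scale from the other CD8 cells, the cells without Gzma and the cells with Havcr2 or Entpd1, and by -1.78 from NK cells. Gzmb differed by 1.56, 2.47, -0.16 and -1.17, and Gzmk by 1.72, 0.64, 0.55 and 4.71. In the main fit the differences of Gzmk from the cells without Gzma and from those with Havcr2 or Entpd1 did not pass. The first of them passed under some alternatives, as given above.

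To compare shares of cells, each cell was thinned to 2000 UMIs, which kept all 76 members. Gzmk was then found in 21.4%, 68.2% and 67.5% of the members of replicates 1, 2 and 3, or 52.4% on average. It was found in 16.1% of the other CD8 cells, 34.8% of the cells without Gzma, 40.1% of the cells with Havcr2 or Entpd1, 3.86% of NK cells and 0.121% of B cells. The B cells serve as a rough guide to free RNA. They were chosen to have no Cd3 UMI and may make some of these transcripts themselves, and how well they measure free RNA was not tested. Replicate 1 of the members was low, below the cells without Gzma (28.3%) and those with Havcr2 or Entpd1 (39.8%) of the same library. For Gzmk at 1000 UMIs, replicate 1 of the members (7.14%) was also below the other CD8 cells of its library (9.11%). Replicates 2 and 3 of the members stayed above the other CD8 cells. At 2000 UMIs, Gzmb was found in 30.8% (28.6%, 36.4% and 27.5%), against 7.10%, 5.34%, 26.0%, 33.1% and 0.221% in the same order. Serpinb9 was found in 38.2% of the members and 1.89% of B cells, and Prf1 in 17.8% (7.14%, 13.6% and 32.5%), against 7.71% of the other CD8 cells and 49.1% of NK cells. Replicate 1 of the members was no higher than the other CD8 cells for Prf1, and thinned to 1000 UMIs the shares were 3.18% in the members and 4.50% in the other CD8 cells, so no order was read from them. Pdcd1 was found in 29.8% of the members, 20.98% of the other CD8 cells and 0.470% of B cells, and Tcf7 in 26.6%, 22.1% and 0.398%. For Tcf7 only replicate 2 was higher in the members (40.9% against 22.2%). Thinned to 1000 UMIs, the Tcf7 shares were 10.9% of the members and 12.2% of the other CD8 cells, so no order was read from them. Pdcd1 then stood at 17.2% and 13.4%, with only replicate 2 higher in the members. At 2000 UMIs, Il7r was found in 22.4% of the members, 30.8% of the other CD8 cells and 1.13% of B cells. Its share was lower in the members in all 3 libraries at this depth. Thinned to 1000 UMIs it was lower in 2 of them, and replicate 1 stood at 21.4% against 20.6%. Lag3 was found, at 2000 UMIs, in 5.41% of the members, 11.2% of the other CD8 cells and 0.163% of B cells. With 3 libraries, the exact sign-flip permutation test cannot give a two-sided p under 0.25, which is the value for any gene that moved 1 way in all 3.

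The members differed among themselves. A Gzmk UMI was found in 59 (6, 15 and 38 per library), and 17 had none (8, 7 and 2), although these 17 were deeper, with a median of 10508 UMIs per cell against 6697. A Gzmb UMI was found in 30 of the 59 cells with Gzmk and in 2 of the 17 without. Their levels of Gzmb were 518, 421 and 226 CPM with Gzmk and 32.6, 0 and 0 CPM without. Ccl5 was also higher with Gzmk in each library, at 14549, 24627 and 14768 CPM against 6955, 2679 and 2900 CPM.

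Some memory genes stood higher in the deeper cells without Gzmk. Tcf7 was found in 15 of the 17 and in 26 of the 59, and stood at 163, 268 and 558 CPM against 23.5, 172 and 98.8 CPM. Il7r was found in 11 of the 17 and in 30 of the 59, and stood at 163, 510.2 and 725 CPM without Gzmk and at 118, 77.4 and 282 CPM with it. All 3 libraries went the same way for both genes, although replicate 3 has only 2 cells without Gzmk. Lef1, at 81.4, 102 and 446 CPM without Gzmk and 94.2, 94.6 and 134 CPM with it, was lower without Gzmk in replicate 1. Pdcd1 ran the other way, at 283, 404 and 229 CPM with Gzmk (29 cells) and 147, 63.8 and 0 CPM without (4 cells). Ccr2 stood at 235, 310 and 141 CPM with Gzmk (31 cells) and 48.9, 25.5 and 0 CPM without (5 cells). Klrg1 and Cx3cr1, marks of short-lived effector cells, were found in 9 and 6 cells with Gzmk and in 0 without. Klra1 ran the other way in all 3 libraries, at 65.2, 89.3 and 223 CPM without Gzmk (7 cells) and 47.1, 25.8 and 38.8 CPM with it (9 cells). Serpinb9, at 147, 408 and 55.8 CPM without Gzmk and 400.2, 138 and 360 CPM with it, and S1pr1 and Klf2 did not go 1 way in all libraries. Irf8 had 97 of its 109 UMIs in the cells without Gzmk, which include 4 of the 6 cells with Fcer1g or Tyrobp. This division uses a measured gene and is a description with no test.

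**Figure D4:**
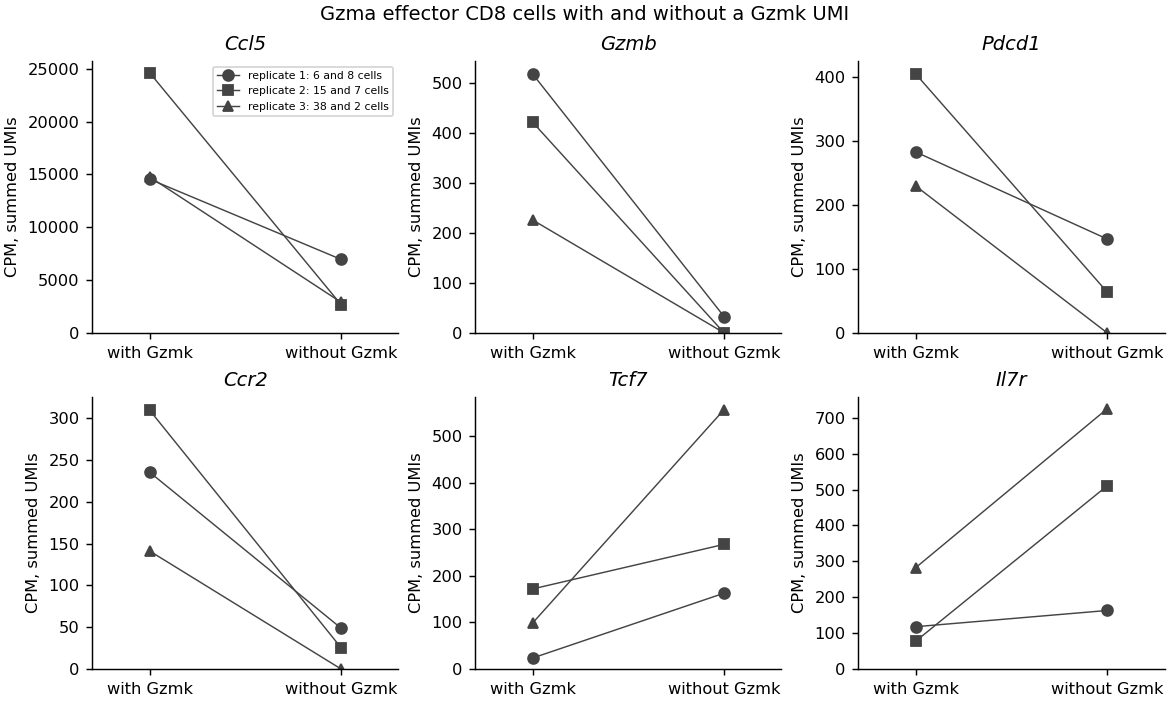
Levels in CPM of selected genes in the members with and without a Gzmk UMI, with a point per library (replicates 1 to 3) and a line joining the cells of the same library. Ccl5, Gzmb, Pdcd1 and Ccr2 lie higher in the cells with Gzmk, and Tcf7 and Il7r in the cells without, in every library.

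Within single members, Gzmk and Il7r were found together in 30 cells, Tcf7 and Il7r in 26, Gzmb and Pdcd1 in 17, and Pdcd1 and Tcf7 in 15. For Gzmk and Il7r, 29 cells had Gzmk only, 11 Il7r only and 6 neither. For Pdcd1 and Tcf7, 18 had Pdcd1 only, 26 Tcf7 only and 17 neither. The counts were not tested against the shares of the single genes, so they show no link between the genes of a pair. Gzmb without Gzmk was found in 2 cells. A gene that is absent from a cell may have been missed at this depth.

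Markers of other cells were summed in the members. The sums of the 7 NK markers given above (703, 272 and 146 CPM) were led by Cd7 with 79 UMIs, and stood at 3724, 2216 and 2854 CPM in NK cells. The 6 gamma-delta markers came to 96.3, 41.1 and 29.9 CPM, and Tcrg-C4 led with 13 UMIs. The 5 CD4 and regulatory T cell markers came to 125, 103 and 163 CPM, mostly Ikzf2 with 74 UMIs, and the 10 islet endocrine and acinar markers to 96.3, 51.4 and 19.9 CPM, led by Prss2 with 10 UMIs. Replicate 1 stood highest for the NK, gamma-delta, B cell, macrophage and islet lists. It also held the 3 members that a doublet score marked, and 43 of the members' 63 Cd74 UMIs lay in 1 cell. The part of these cells and transcripts in the results was not tested beyond leaving them out.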

How the data were processed

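For each library, the authors deposited a gene by cell matrix of raw UMI counts for 32285 genes, made with Cell Ranger 6.0.1 on mm10, without normalization or cell types. The 3 libraries came from 2 experiments, and which library belongs to which is not given in the sources used here, so experiment could not enter as a term. Cells with at least 1000 UMIs and under 10% mitochondrial UMIs were kept (26142 of 26947). The members, the gene lists and the tests were chosen with earlier results of these data known.

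UMIs were summed per library and cell group, and levels are CPM of these sums (mean ± SD where given, n = 3 libraries). Cells are not replicates. Where nothing else is said, p-values come from edgeR 4.0.16 (R 4.3.3; filterByExpr, TMM, glmQLFit, glmQLFTest) with library as a blocking factor. P-values were adjusted by Benjamini-Hochberg over the genes tested and called under 0.05. The SE is the log2 fold change divided by the square root of F. The comparison with other CD8 cells was fitted on its own 6 sums. The other comparisons were fitted together on 12 sums, each of at least 10 cells. The 11 genes of the rule stayed in the library sizes and were not tested, nor were Ncr1, Klrb1c and Lyz2 against NK cells, which had no Cd3 UMI, at least 1 UMI of Ncr1 or Klrb1c, and at most 1 each of CD8, Cd79a and Lyz2. B cells had at least 2 Cd79a UMIs and no Cd3. The 3 libraries are pools of separate mice, and p-values measure the spread between these pools, as if all were independent. In the fit against other CD8 cells edgeR's prior degrees of freedom were infinite, so the spread is one shared between genes of like abundance (with 2 residual degrees of freedom per gene), whereas the joint fit had 6 residual and 15.1 prior degrees of freedom.

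The pairing rests on the design, since every library supplies cells of each group from 1 pool of mice. It was checked by correlating deviations from group means. Within libraries r ran from 0.061 to 0.61 over 18 pairs (mean 0.25), and across libraries from -0.51 to 0.32 over 36 pairs (mean -0.11).

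Named genes were those of the rule and of 15 lists, and those changed most, higher and lower (10 against other CD8 cells, 6 otherwise) past the threshold, at 50 CPM or more in the higher group, with 1 direction in all libraries and not mitochondrial, ribosomal or Malat1. A further 6 lists hold markers of other cells. Some genes of the lists are not reported here, though they stay in the counts. The procedure was tested on simulated data in which 200 genes differed by 2 on the log2 scale. It recovered 62.5% against other CD8 cells (9205 genes, 5 false calls), 75.5% against the cells without Gzma (8 false calls), 72% against those with Havcr2 or Entpd1 (13 false calls) and 68% against NK cells (4 false calls). Of the higher genes it recovered 83% against other CD8 cells, and of the lower ones 42%.

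Alternatives were DESeq2 1.42.0, limma-voom (limma 3.58.1), no filter on low counts, no block, each library left out, the study's cell limits (200 to 5000 genes, under 6000 UMIs, under 5% mitochondrial and above 5% ribosomal UMIs), removal of doublets scored after the DoubletFinder procedure (30 components, 7.6% per library), cells thinned to 2000 UMIs, cells of 2000 to 6000 UMIs, a looser rule (Gzma at least 1, Ccl5 at least 3), a stricter one (at least 4 and 10), and CD8 cells without RNA of other lineages. Doublets were kept otherwise. The limma-voom fit and the removal of cells with Fcer1g, Tyrobp or at least 2 Cd74 UMIs were chosen after seeing the data. Gene positions come from GENCODE M21 on mm10, promoters from RefSeq on GRCm38.p6, which holds all 3 granzymes printed but can set a start elsewhere than GENCODE. Plots were drawn with matplotlib 3.10.9.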

Additional observations from a re-analysis of the deposited data

How the results depend on the processing

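The counts of called genes moved with the method, the block, the filter and the cells kept. Against the other CD8 cells, where 194 genes were called, the count was 85 with DESeq2, 108 with limma-voom (65 higher), 14 without the replicate block, 68 under the study's cell limits (13 higher), 76 with cells thinned to 2000 UMIs (17 higher), 62 with cells of 2000 to 6000 UMIs (15 higher) and 99 to 187 with a library left out. Against the cells without Gzma (41 called) it was 95 without the filter on low counts, 8 without the block, 4, 20 and 7 under these 3 settings of the cells, 8 with the stricter rule and 12 to 49 with a library left out. Against the cells with Havcr2 or Entpd1 (194 called) it was 335 without the filter, 36 without the block, 25, 80 and 25 under the same settings, 397 with the looser and 57 with the stricter rule, and 15 to 248 with a library left out. Against NK cells (524 called) it was 298 without the block, 85, 263 and 96 under them, and 195 to 511 with a library left out. The cause was not tested. The study's limits leave 5, 4 and 18 members, 2000 to 6000 UMIs leave 5, 5 and 18, and the stricter rule 9, 16 and 27. In the joint fit the first 2 therefore rest on 1 and the same member sum, that of replicate 3, assumed to vary like the other groups, and the stricter rule on 2. With DESeq2, 41 of 56 calls against the cells without Gzma and 139 of 209 against those with Havcr2 or Entpd1 were higher, against 25 of 41 and 104 of 194 with edgeR. The members' share of CD8 cells was 3.54% under the looser and 1.45% under the stricter rule. Shares of members with a UMI, in cells thinned to 1000 UMIs and in whole cells, were 20.5% and 43.6% for Gzmb, 3.18% and 39.1% for Prf1, 17.2% and 44.1% for Pdcd1, 10.9% and 56.6% for Tcf7, and 16.8% and 51.6% for Il7r. In whole cells Gzmk was found in 68.7% of the members and 71.4% of the cells with Havcr2 or Entpd1.

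Some genes changed direction. Against the other CD8 cells, log2 fold changes were, under the study's limits and at 2000 to 6000 UMIs, -1.92 and -1.93 for Car2, -1.94 and -1.98 for Irf8, and -0.49 and -0.64 for Tcf7. Irf8 was also at -2.19 without cells that had Fcer1g or Tyrobp. Tcf7 was at -0.17 without replicate 2, -0.27 when thinned and -0.0093 with the Cd3 and Cd79a limits on all CD8 cells. Il7r was at 0.12 without replicate 1, 0.24 and 0.029 under the looser and stricter rules and 0.023 with limma-voom. With at most 1 Cd74 UMI per cell, H2-Ab1 was at 0.081 and Ighg2b at 0.49. Against the cells without Gzma, the values under the study's limits and at 2000 to 6000 UMIs were -1.11 and -0.96 for Car2, -1.04 and -1.01 for Fcer1g, and -4.78 and -4.84 for Irf8. Without cells that had Fcer1g or Tyrobp, Fcer1g was at -0.028 and Irf8 at -0.50, and Klrb1b was at -1.11 when thinned. Against the cells with Havcr2 or Entpd1, the same limits gave -0.032 and -0.22 for Car2 and -0.062 and -0.067 for Zhx2. Gzmb was at 0.35 and 0.34 there, 0.13 when thinned and 0.51 under the stricter rule. Against NK cells, 0 of 431 values of 29 genes changed direction. Of all values of named genes under the alternatives, 583 of 706, 231 of 370, 305 of 429 and 383 of 431 kept direction and side of the threshold in the 4 comparisons in turn. With 14 members in replicate 1, a gene under 28.9 CPM there rests on fewer than 3 UMIs.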

Other observations

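Some genes were given no values above. Mt1, a metallothionein that binds zinc, stood at 96.3, 195 and 212 CPM in the members and at 17.0, 46.1 and 63.0 CPM in the Ccl5-high cells without Gzma (log2 fold change 1.92 ± 0.25, edgeR adjusted p = 0.00023, past the threshold in 12 of 15 alternatives). Hopx, a homeodomain protein of effector memory cells, stood at 193, 51.4 and 133 CPM against 46.8, 28.5 and 34.03 CPM in the other CD8 cells (1.64 ± 0.26, edgeR adjusted p = 7.1e-08), with all 3 libraries of the members above all 3 of the others. Lgals3, the gene of galectin-3, stood at 472, 123 and 173 CPM against 91.2, 69.0 and 72.4 CPM (1.43 ± 0.20, edgeR adjusted p = 2e-10), high in replicate 1. Iigp1, an interferon-induced GTPase, had 8 UMIs in 3 members, at 0, 5.14 and 23.2 CPM against 15.8, 93.8 and 84.2 CPM (-2.59 ± 0.43, edgeR adjusted p = 2.5e-07, past the threshold in 16 of 17 alternatives).

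Il12rb2, a chain of the IL-12 receptor, stood at 48.1, 41.1 and 49.8 CPM in the members and at 2.01, 11.7 and 7.85 CPM in the cells with Havcr2 or Entpd1 (2.66 ± 0.45, edgeR adjusted p = 0.0022). It did not pass without replicate 3 (edgeR adjusted p = 0.16). Ccl4, a chemokine released by activated T cells, stood at 221, 15.4 and 49.8 CPM in the members and at 188, 370.1 and 87.0 CPM in the cells with Havcr2 or Entpd1, with overlap and no call.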
